A study of Mus musculus with 9 samples.

Results

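The comparison described here sets intestinal stem cells after 4 days of KANSL1 loss (KO day 4) against the same kind of cells after 3 days (KO day 3). It uses 6 of the 9 RNA-seq libraries of the study, 3 per group, all of which were chosen by their labels. Cells of the mouse small intestine that carry green fluorescent protein under the Lgr5 promoter were sorted. The mice had an Lgr5-EGFP-CreERT2 allele and loxP-flanked Kansl1 alleles, so that tamoxifen-activated Cre removes Kansl1 in Lgr5-expressing cells. KO day 3 mice received tamoxifen daily for 3 days and KO day 4 mice for 4 days. The 3 control libraries, labelled KANSL1-WT and given corn oil, were left out of the fit, and their levels are given on the same scale for orientation. The extra day and the extra dose of tamoxifen cannot be told apart, and the Cre acts only in cells that expressed Lgr5. The labels do not say that the libraries of a group came from separate animals. The p-values thus reflect only how far these libraries vary, and that variation may be technical.

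KANSL1 holds together the NSL complex, in which the acetyltransferase KAT8 acetylates histone H4 at the promoters of many housekeeping genes. Lgr5-expressing stem cells sit at the crypt base between Paneth cells, which secrete antimicrobial peptides and niche signals, and they renew both the absorptive and the secretory lineages of the epithelium. Crypts that lose their stem cells are known to switch on stress programmes and a fetal-like, regenerative programme. Interferon gamma from immune cells is known to induce antigen presentation and immunity-related GTPases in crypt cells.

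The targeted gene, Kansl1 (ENSMUSG00000018412; GRCm38 chromosome 11, 104333229 to 104468861, minus strand), stood at 4.69, 4.94 and 4.14 CPM in the KO day 3 libraries and at 4.75, 8.27 and 14.7 CPM in the KO day 4 libraries, where CPM is the count scaled to 1e6 TMM-scaled counts of nuclear genes. The groups overlapped, and the difference did not pass the test (log2 fold change 0.99, standard error 0.52, adjusted p = 0.27 by edgeR). The controls stood at 7.26, 18.4 and 15.8 CPM. Within their range lay the KO day 4 libraries at 8.27 and 14.7 CPM, the latter labelled replicate 3. Reads outside the deleted exons are counted too, so the gene total checks the labels only in part. The other 11 measured members of the NSL and MSL complexes gave no call, and Kat8 was at 16.3 ± 3.24 CPM at day 3 and 19.4 ± 8.37 at day 4 (SD, n = 3).

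The make-up of the libraries changed between the 2 days. Counts of nuclear genes were 6808115, 12768530 and 14905644 at day 3 and 5614186, 4181353 and 3115374 at day 4, so low values are less precise at day 4. Transcripts of the mitochondrial genome took 19.0%, 32.4% and 30.6% of all counts at day 3 and 66.9%, 69.3% and 72.1% at day 4. The difference of 42.1 percentage points had an exact two-sided permutation p of 0.10, the smallest that 3 against 3 allow. KO day 3 replicate 1 correlated across genes (log2 CPM) at 0.936 and 0.931 with KO day 3 replicates 2 and 3, which correlated with each other at 0.977. KO day 4 replicate 3 did so at 0.883 and 0.891, against 0.947 for the other pair. Both libraries stand apart from their groups, and the main counts are also given without them.

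**Figure D1:**
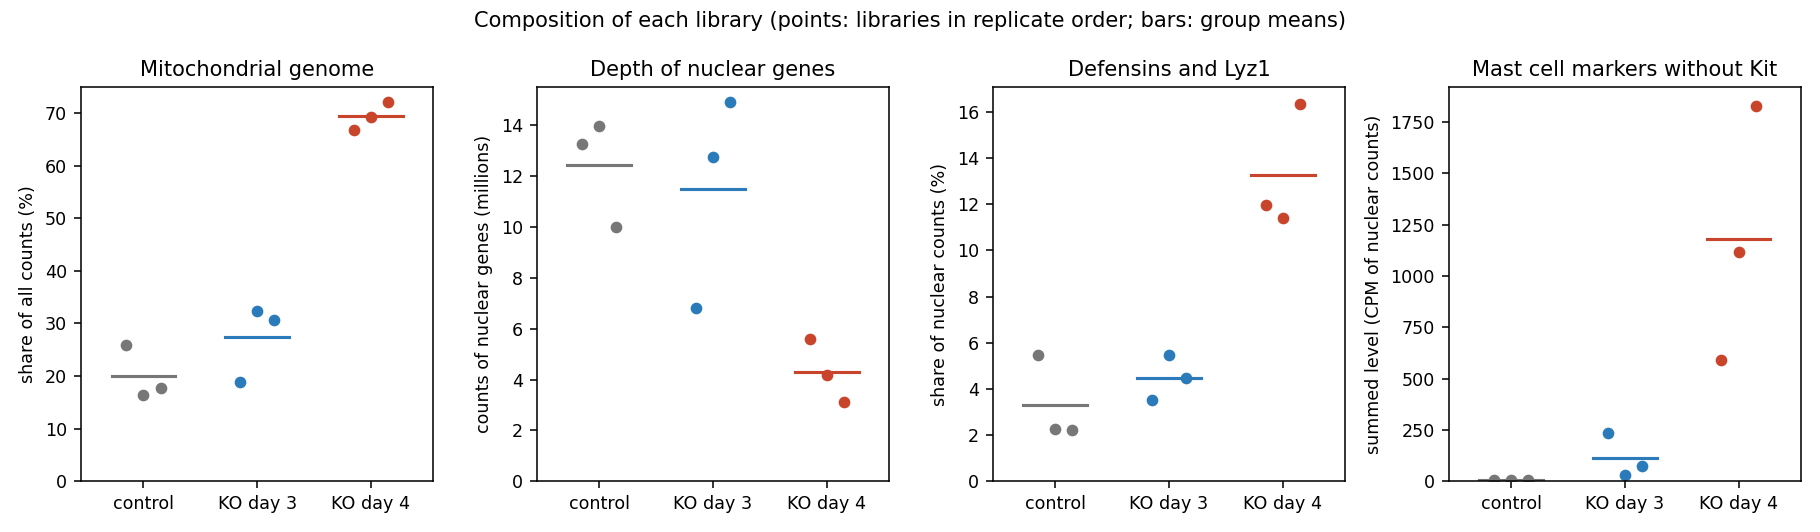
Composition of each library, with control, KO day 3 and KO day 4 on the x axis, 1 point per library and a bar at the group mean. The panels give the mitochondrial share of all counts (%), nuclear counts (1e6), the share of defensins and Lyz1 in nuclear counts (%) and the summed level of mast cell markers other than Kit (CPM); KO day 4 libraries lie between 66.9% and 72.1% mitochondrial counts, above all others.

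Of 11979 tested nuclear genes, 803 (6.7%) changed between the 2 days at an edgeR adjusted p under 0.05, here termed called. At day 4, 496 (4.14%) were higher, with a median log2 fold change of 2.13, and 307 (2.56%) were lower, with a median of -1.13. More than 4-fold changes were found in 271 of the higher and 43 of the lower genes. In all 803 the groups did not overlap, as was the case in 4173 tested genes in all. At day 4, 484 of the 496 higher and 270 of the 307 lower genes lay beyond every control library. The median log2 fold change of all tested genes was -0.03. When libraries were scaled by size alone it was -0.30, and 405 genes were then called higher and 1121 lower. Without the 2 libraries that stand apart, 635 were higher and 363 lower.

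The largest rises among genes with a mean of at least 10 CPM belonged to a few kinds of cells and programmes. Sh2d6, Dclk1, Plcb2 and Alox5ap are genes of tuft cells, the chemosensory cells of the epithelium, and Plcb2 and Alox5ap are also expressed by blood cells. Ms4a2 encodes a chain of the mast cell IgE receptor, and Slc18a2 a vesicular monoamine transporter. Anxa3, Areg and Il1rn are genes of repair and inflammation, Ces1c is a carboxylesterase, and Fam129a (also known as Niban) is a stress-induced regulator of translation. Their log2 fold changes ran from 4.16 (Il1rn) to 5.83 (Sh2d6). Fam129a was at 1.85, 1.15 and 1.04 CPM at day 3 and 43.5, 49.9 and 52.9 at day 4 (log2 fold change 5.22, standard error 0.34, adjusted p = 0.00014 by edgeR). Its level was thus low and even in the day 3 libraries and high and even in the day 4 libraries, with controls at 0.95, 0.54 and 0.58 CPM.

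The largest falls included Ces1d, Dmbt1, Igtp, Ugt1a6a, H2-Aa, Iigp1, Tnfsf10, H2-DMa, Ifi47, Slc1a3 and Psmb8, from -4.66 (Ces1d) to -2.66 (Psmb8) on the log2 scale. They include 2 enzymes of xenobiotic metabolism (Ces1d, Ugt1a6a), the death ligand TRAIL (Tnfsf10), a glutamate transporter (Slc1a3) and 6 genes of the interferon gamma programme. Ugt1a6a shares exons with other Ugt1a genes, and its own value is uncertain. Of the 3 genes with the smallest p, Dmbt1 was lower, and Gm13340 and ENSMUSG00002076809, which has no symbol in the annotation used, were higher. Gm13340 is a nuclear pseudogene copy of mitochondrial DNA.

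**Figure D2:**
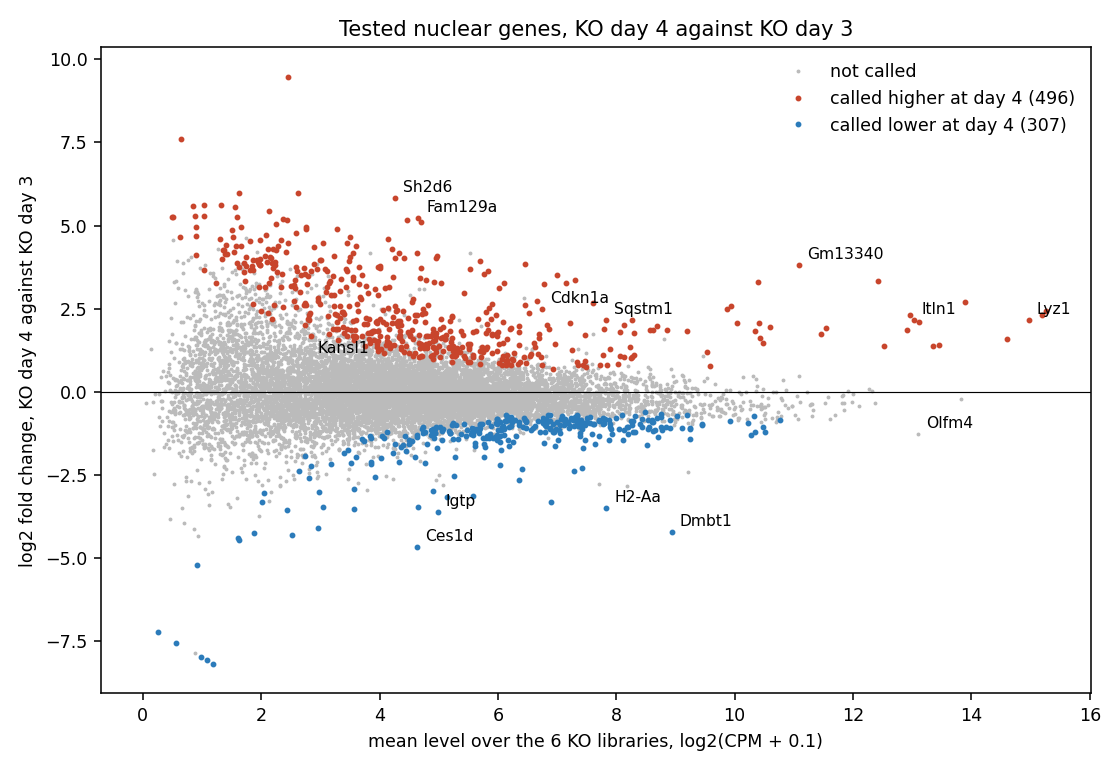
Log2 fold change of KO day 4 against KO day 3 (y axis) by mean level over the 6 KO libraries (x axis, log2 of CPM plus 0.1), 1 point per tested nuclear gene. The 496 called higher are red, the 307 called lower blue and the rest grey; most falls lie between -2 and 0, while rises reach above 5.

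Several genes that interferon gamma induces fell from day 3 to day 4. Igtp, an immunity-related GTPase (IRGM3), was at 70.0, 33.5 and 70.3 CPM at day 3 and 1.52, 6.46 and 6.98 at day 4 (log2 fold change -3.60, standard error 0.53, adjusted p = 0.0090 by edgeR). The controls were at 8.52, 7.11 and 5.93, so the day 3 libraries stood above both other groups, which lay close to each other. Iigp1, another GTPase of this family, was at 37.1, 30.3 and 68.9 CPM at day 3, 0.95, 2.58 and 9.92 at day 4 and 1.39, 1.12 and 0.217 in controls (log2 fold change -3.47, standard error 0.69, adjusted p = 0.024 by edgeR). Ifi47, from the same family, was at 53.3, 45.2 and 60.2 CPM at day 3 and 7.79, 3.10 and 9.55 at day 4, below the controls at 18.2, 19.4 and 22.8. It fell too (log2 fold change -2.97) but is not in the list of IRG and GBP GTPases used for the counts. Of the 10 tested GTPases of that list, 2, Igtp and Iigp1, were called lower and none higher, with a median of -1.38, and 6 were called lower without the 2 libraries that stand apart. Leaving out single libraries, 1 to 4 were called.

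Antigen presentation genes were among the falls. Of 15 tested genes of MHC class I presentation, 9 fell and none rose (median -1.14). The immunoproteasome subunit Psmb8 was at 135, 114 and 173 CPM at day 3 and 11.03, 18.6 and 38.9 at day 4 (log2 fold change -2.66, standard error 0.41, adjusted p = 0.011 by edgeR), with controls between, at 57.5, 68.6 and 39.3. Its partner Psmb10 fell from 264 ± 45.9 to 82.9 ± 13.4 CPM (SD, n = 3), the class I light chain B2m from 586 ± 49.2 to 282 ± 19.6 and the heavy chain H2-K1 from 434 ± 52.8 to 189 ± 29.6. The constitutive proteasome gave no call in 31 subunits (median -0.15). Single libraries left out gave 1 to 8 class I calls, fewest without KO day 4 replicate 2.

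Class II presentation showed the largest median of any fallen list, -2.76 over 8 tested genes. All 8 had every day 4 library below every day 3 library, while 4173 of all 11979 tested genes had no overlap in either direction. The class II chain H2-Aa was at 248, 420 and 585 CPM at day 3 and 8.56, 13.7 and 92.2 at day 4 (log2 fold change -3.50, standard error 0.78, adjusted p = 0.032 by edgeR). The peptide-loading factor H2-DMa was at 76.1, 77.6 and 103 CPM and then at 5.89, 3.62 and 21.3 (log2 fold change -3.12, standard error 0.54, adjusted p = 0.015 by edgeR). In both genes the highest day 4 value was that of replicate 3, which stands apart. These 2 of the 8 were called, 7 of the 8 without the 2 libraries that stand apart, and none without KO day 4 replicate 2. Of 24 tested genes of the type I interferon response 1 rose and none fell (median 0.29, or -0.01 with library size alone). That is a share of 4.17% called higher, against 4.14% of all tested genes. The riser, the transcription factor Irf7, was at 4.83, 6.44 and 10.9 CPM at day 3 and 27.6, 22.996 and 48.1 at day 4.

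Upstream of the RefSeq start of Igtp (GRCm38), a match to the interferon-stimulated response element was found on the strand opposite to the gene, 34 to 25 bases before the start, at chr11:58199507-58199546. The stretch is shown because Igtp was the only called gene of the GTPase list with a promoter to search. The promoter of Ifi47 was not searched. The match is in capitals.

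Igtp: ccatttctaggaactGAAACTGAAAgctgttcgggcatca

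The search covered 250 bases before the start on both strands. Iigp1 was not in the promoter table, Irf7 held no match, and 2.98% of all 32851 promoters of the table held one. A match is a description of letters and shows no binding.

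Among other genes of mucosal defence, the changes went both ways. Dmbt1, a secreted scavenger glycoprotein that binds bacteria (chromosome 7, 131032053 to 131121630, plus strand), was at 990, 1090 and 717 CPM at day 3 and 63.1, 36.2 and 52.2 at day 4 (log2 fold change -4.20, standard error 0.27, adjusted p = 0.00014 by edgeR). Its day 3 levels lay in the range of the controls, at 1073, 1507 and 575 CPM, and every day 4 library lay below all of these. Pigr, which carries IgA across the epithelium, fell from 508, 727 and 566 CPM to 261, 261 and 297 (log2 fold change -1.14, standard error 0.19, adjusted p = 0.014 by edgeR). Reg4, a secreted lectin, rose from 169 ± 36.4 to 617 ± 24.2 CPM, and the chemokine Ccl6 from 112 ± 18.8 to 450.5 ± 103 (SD, n = 3). In all, 3 of 15 tested genes rose and 2 fell.

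**Figure D3:**
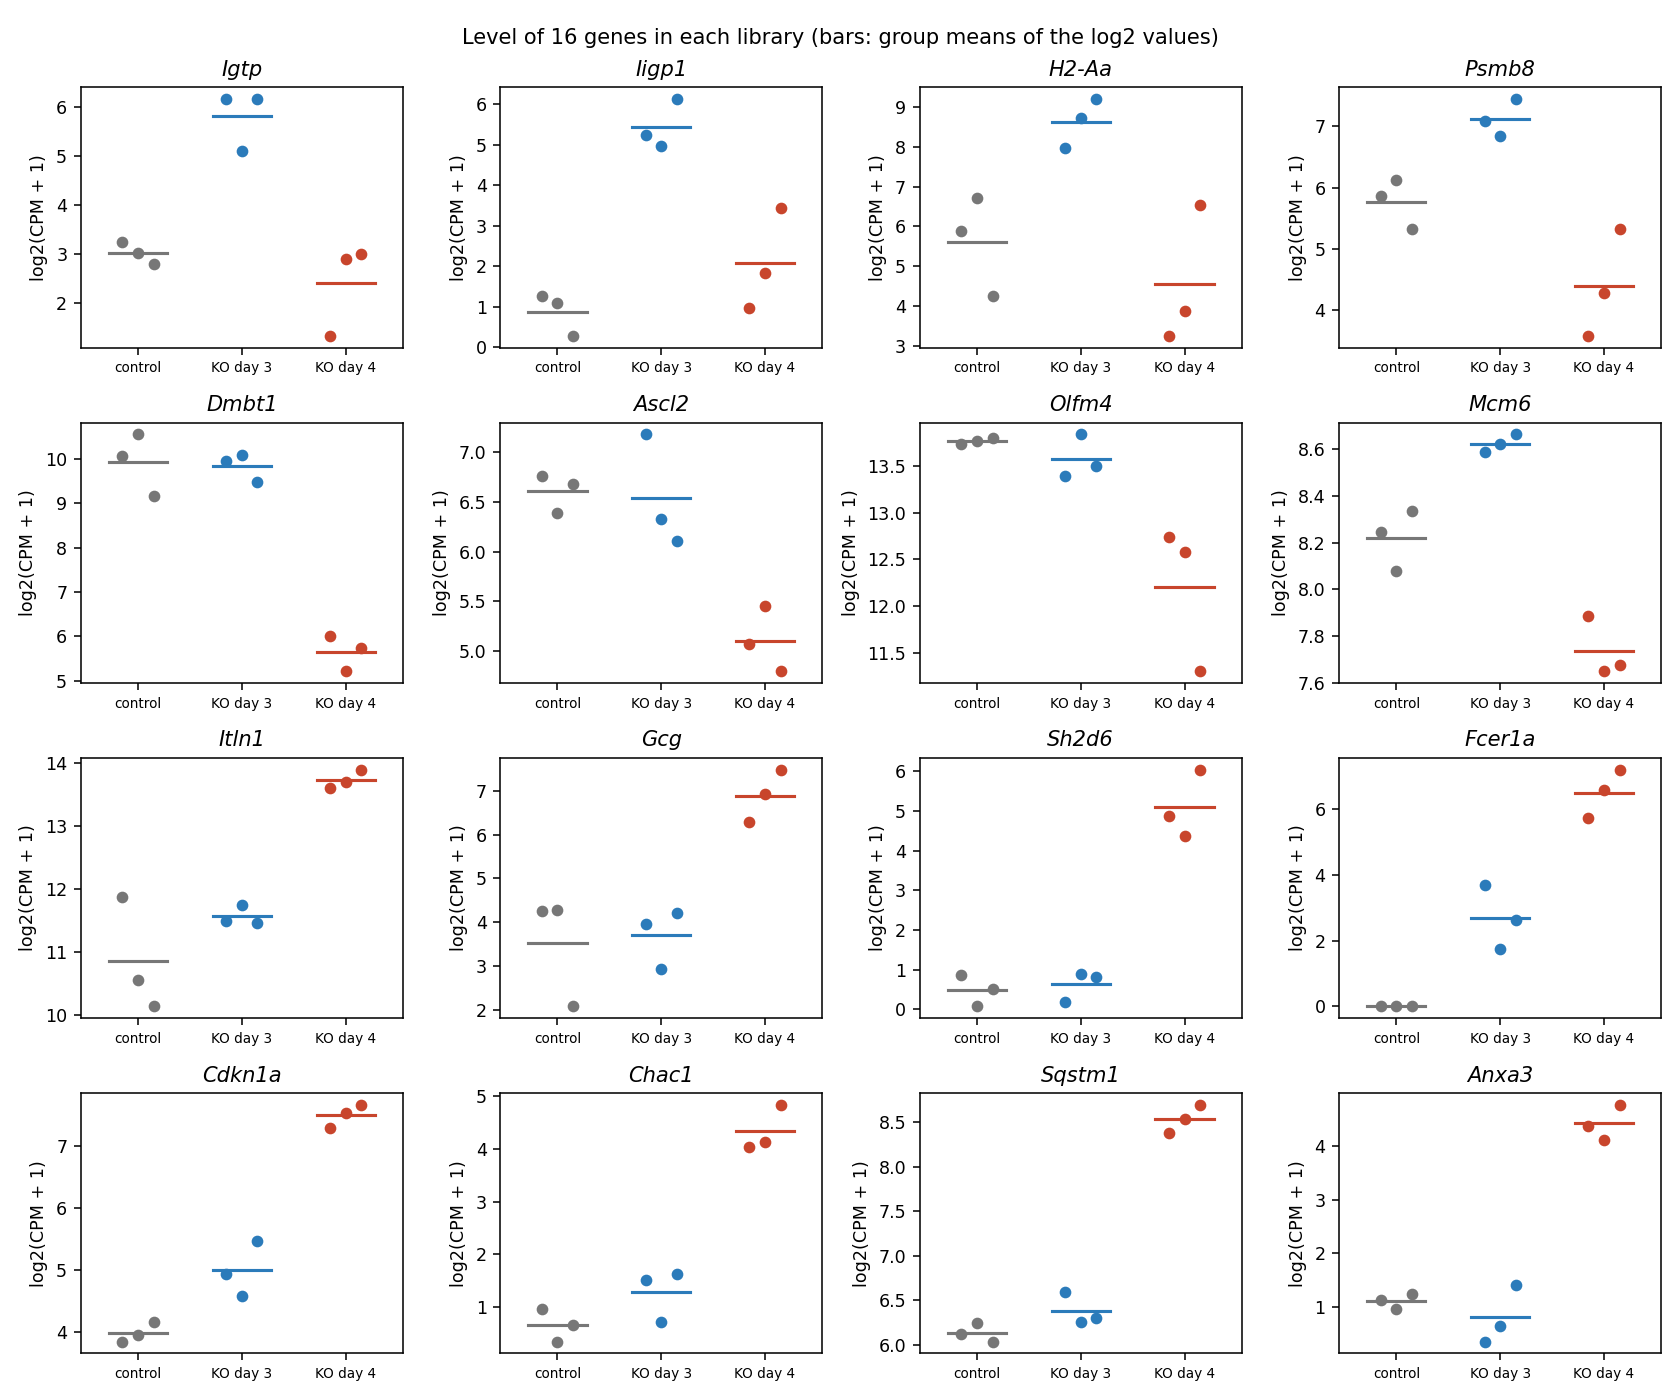
Levels of 16 genes in each library, as log2 of CPM plus 1 (y axis), with 1 point per library, a bar at the mean and the groups on the x axis. Igtp, Iigp1, H2-Aa and Psmb8 peak at day 3; Dmbt1, Ascl2, Olfm4 and Mcm6 are lowest at day 4; the last 8 genes are highest at day 4 in every library.

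The stem cell list held 4 called genes, all lower at day 4, among 28 tested markers (median -0.68). In 16 markers the groups did not overlap in the lower direction. Over all 11979 tested genes, 4173 had no overlap, counting either direction. Ascl2, the Wnt-driven transcription factor of these stem cells, was at 144, 79.1 and 67.8 CPM at day 3 and 32.5, 42.6 and 26.8 at day 4 (log2 fold change -1.51, standard error 0.32, adjusted p = 0.029 by edgeR). The secreted protein Smoc2 was at 298, 287 and 284 CPM and then at 186, 141 and 115 (log2 fold change -0.97, standard error 0.20, adjusted p = 0.027 by edgeR). The IGF-binding protein Igfbp4 (-0.98) and the vitamin D receptor Vdr (-0.88) fell by similar amounts.

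Olfm4 and Lgr5 did not pass the test. Olfm4, an abundant secreted glycoprotein of these cells, was at 10761, 14694 and 11617 CPM at day 3 and 6844, 6134 and 2523 at day 4 (log2 fold change -1.26, standard error 0.34, adjusted p = 0.056 by edgeR), without overlap. Lgr5, whose promoter drives the sorted marker, was at 32.4, 64.3 and 54.5 CPM and then at 36.1, 43.4 and 24.2 (log2 fold change -0.54, standard error 0.32, adjusted p = 0.32 by edgeR), with overlap. In bulk libraries such as these, fewer cells of a type and less RNA per cell cannot be told apart. Without the 2 libraries that stand apart 9 markers were called lower, and with single libraries left out 0 to 4 were, none without KO day 3 replicate 2, KO day 4 replicate 2 or KO day 4 replicate 3 (edgeR; 2293, 2601 and 2651 genes of all those tested were then at unadjusted p under 0.05).

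Some proliferation genes fell. Of 37 genes of S phase and DNA replication 9 fell and none rose (median -0.70). The helicase subunit Mcm6 was at 384, 393 and 405 CPM at day 3 and 236, 200 and 203 at day 4 (log2 fold change -0.89, standard error 0.16, adjusted p = 0.017 by edgeR), with controls between the groups at 303, 270 and 322. Tk1 (-1.11), which supplies nucleotides, and the primase subunit Prim1 (-1.19) fell too. Of 34 genes of G2 and mitosis none was called (median -0.28), or 3 lower with library size alone; Top2a was at 235 ± 48.2 and 184 ± 15.8 CPM (SD, n = 3) and Mki67 at 53.1 ± 9.06 and 48.6 ± 11.2, and the difference between the phases was not tested. When any 1 library was left out, 0 to 6 of the S phase genes were called, none without KO day 3 replicate 2 or KO day 4 replicate 2 (edgeR). Of 61 tested genes of DNA damage signalling and repair 2 fell, a share of 3.28% against 2.56% of all tested genes. These were Apex1 (-0.92) and Ung (-1.09), both of base excision repair. Each was called in 1 of the 6 fits that leave out 1 library.

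Paneth cell products rose together. All 19 tested genes were called higher, from 1.40 to 2.68 on the log2 scale (median 1.95). The groups did not overlap in any of them, as in all 803 called genes. The lectin Itln1 was at 2854, 3430 and 2806 CPM at day 3 and 12431, 13318 and 15175 at day 4 (log2 fold change 2.17, standard error 0.19, adjusted p = 0.00059 by edgeR). The antimicrobial ribonuclease Ang4 was at 440, 631 and 497 CPM and then at 2105, 2039 and 2449 (log2 fold change 2.07, standard error 0.19, adjusted p = 0.00089 by edgeR). Lysozyme, Lyz1, rose from 11687 ± 3223 to 52645 ± 9104 CPM and the colipase Clps from 113 ± 26.05 to 503 ± 77.5 (SD, n = 3).

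Defensins and Lyz1 made up 3.52%, 5.47% and 4.46% of nuclear counts at day 3 and 11.98%, 11.4% and 16.4% at day 4. Controls were at 5.48%, 2.25% and 2.24%, so the day 3 libraries overlapped with the controls. Defensin genes are near-identical, so single members may have split or lost reads. Over the fits that leave out 1 library, 15 to 19 of the 19 were called, fewest without KO day 3 replicate 2, and all 19 without the 2 libraries that stand apart. Whether the rise came from Paneth cells in the sort, their free RNA or expression in Lgr5-GFP cells was not tested.

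Enteroendocrine genes were also among the rises. Of 18 tested enteroendocrine genes 9 rose and none fell (median 1.76). Gcg, which encodes glucagon-like peptides, was at 14.6, 6.66 and 17.6 CPM at day 3 and 76.4, 120 and 177 at day 4 (log2 fold change 3.26, standard error 0.42, adjusted p = 0.0054 by edgeR). Chgb, a granule protein, was at 37.5, 21.6 and 50.0 CPM and then at 104, 126 and 153, and Tph1, which makes serotonin, at 15.9, 5.22 and 8.11 CPM and then at 39.7, 71.3 and 118. The peptide hormone gene Nts had 0 counts in the 3 day 3 libraries and 107 at day 4, at least 95.3-fold higher when day 3 is set to a floor of 3 counts in all. With single libraries left out 1 to 9 were called, fewest without KO day 4 replicate 2.

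Goblet cell genes changed less evenly, with 4 of 16 higher and 1 lower (median 0.85). The mucin Muc2 was at 76.3, 85.3 and 120 CPM at day 3 and 253, 295 and 504 at day 4 (log2 fold change 1.90, standard error 0.29, adjusted p = 0.011 by edgeR). Sytl2, of the exocytosis machinery, and S100a6 rose by 2.41 and 2.14, whereas Fcgbp, which binds mucins, fell from 406 ± 149 to 150.4 ± 43.2 CPM (SD, n = 3). Of 17 tested enterocyte genes 3 rose, namely Cdhr5 of the brush border (1.62), Apoa1 (1.83) and Krt20 (2.00). The 1 that fell was Dgat1, which makes triglycerides (-1.62). Of 19 tested general epithelial genes 1 rose and 2 fell. Krt18 rose from 753 ± 52.3 to 2092 ± 283 CPM, while Epcam fell from 924 ± 78.4 to 465 ± 71.9 and the tight junction gene Cldn15 from 359.8 ± 41.4 to 166 ± 17.5 (SD, n = 3). The shares called in the enterocyte and general epithelial lists were 23.5% and 15.8%, against 6.7% of all tested genes.

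Tuft cell genes had a median of 3.78 over 14 tested genes, of which 11 rose and none fell. Sh2d6 was at 0.142, 0.859 and 0.748 CPM at day 3 and 28.1, 19.6 and 65.0 at day 4 (log2 fold change 5.83, standard error 0.64, adjusted p = 0.0024 by edgeR). Dclk1, a kinase that marks tuft cells, was at 0, 1.29 and 1.84 CPM and then at 23.6, 44.4 and 60.2 (log2 fold change 5.18, standard error 0.73, adjusted p = 0.0073 by edgeR). Avil, which bundles actin in the apical tuft, was at 4.97, 2.43 and 3.63 CPM and then at 26.2, 35.4 and 83.4. The controls stood at 1.20 CPM or less for each of these. Day 3 counts were low (26 for Sh2d6 and 50 for Dclk1 over 3 libraries), so the size of these folds is imprecise. Leaving out single libraries, 6 to 11 were called, fewest without KO day 3 replicate 2.

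Mast cell markers rose in the same libraries. Of 14 tested markers 12 rose (median 3.54). The IgE receptor chain Fcer1a was at 11.9, 2.36 and 5.18 CPM at day 3, 51.7, 94.3 and 146 at day 4 and 0 in all 3 controls (log2 fold change 3.95, standard error 0.59, adjusted p = 0.0096 by edgeR). Gata2 (3.63), the IL-33 receptor Il1rl1 (3.70) and the receptor Kit (2.30), which crypt cells also express and which was at 10.7, 8.61 and 10.6 CPM in controls, rose with it. Summed over the list without Kit, which was left out with earlier values known, the level was 236, 29.7 and 73.3 CPM at day 3 and 589, 1117 and 1829 at day 4, against 3.90 to 6.74 in controls. Dclk1 was at 0 in the day 3 library with the highest mast cell sum. When any 1 library was left out, 1 to 12 markers were called, fewest without KO day 4 replicate 2.

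At day 4, markers of other blood and tissue cells summed to lower levels than mast cell markers. Summed pan-leukocyte genes were at 32.8 to 62.5 CPM at day 3 and 112 to 211 at day 4, and 4 of 9 tested rose, namely Rac2 (3.77), Arhgdib (3.02), Laptm5 (3.08) and Fcer1g (3.79), all of which mast cells are known to express too. Without the 2 libraries that stand apart, 8 of these 9 genes were called higher. Gzmb, a granzyme of lymphocytes that mast cells can also make, was at 12.4, 0.859 and 3.86 CPM and then at 25.5, 57.4 and 80.4 (log2 fold change 3.32). Of the 14 lymphocyte markers listed, it was the 1 with enough counts to be tested. The cells that Gzmb came from were not tested. Macrophage markers summed to 23.5 to 36.9 and 43.7 to 102 CPM, with 1 of 7 called (Cx3cr1) and 4 of 7 without the 2 libraries that stand apart (median 2.23 and 2.71). Neutrophil, B cell, endothelial, stromal and red blood cell lists each summed to at most 60.6 CPM in every library, with Vim and Pecam1 called higher. Whether mast cell or leukocyte RNA contributes to the rises of tuft, eicosanoid and repair genes was not tested. Of the eicosanoid list 3 of 11 rose, Alox5ap, Alox5 and Hpgds, each also in the tuft list, and Ptges2 fell.

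**Figure D4:**
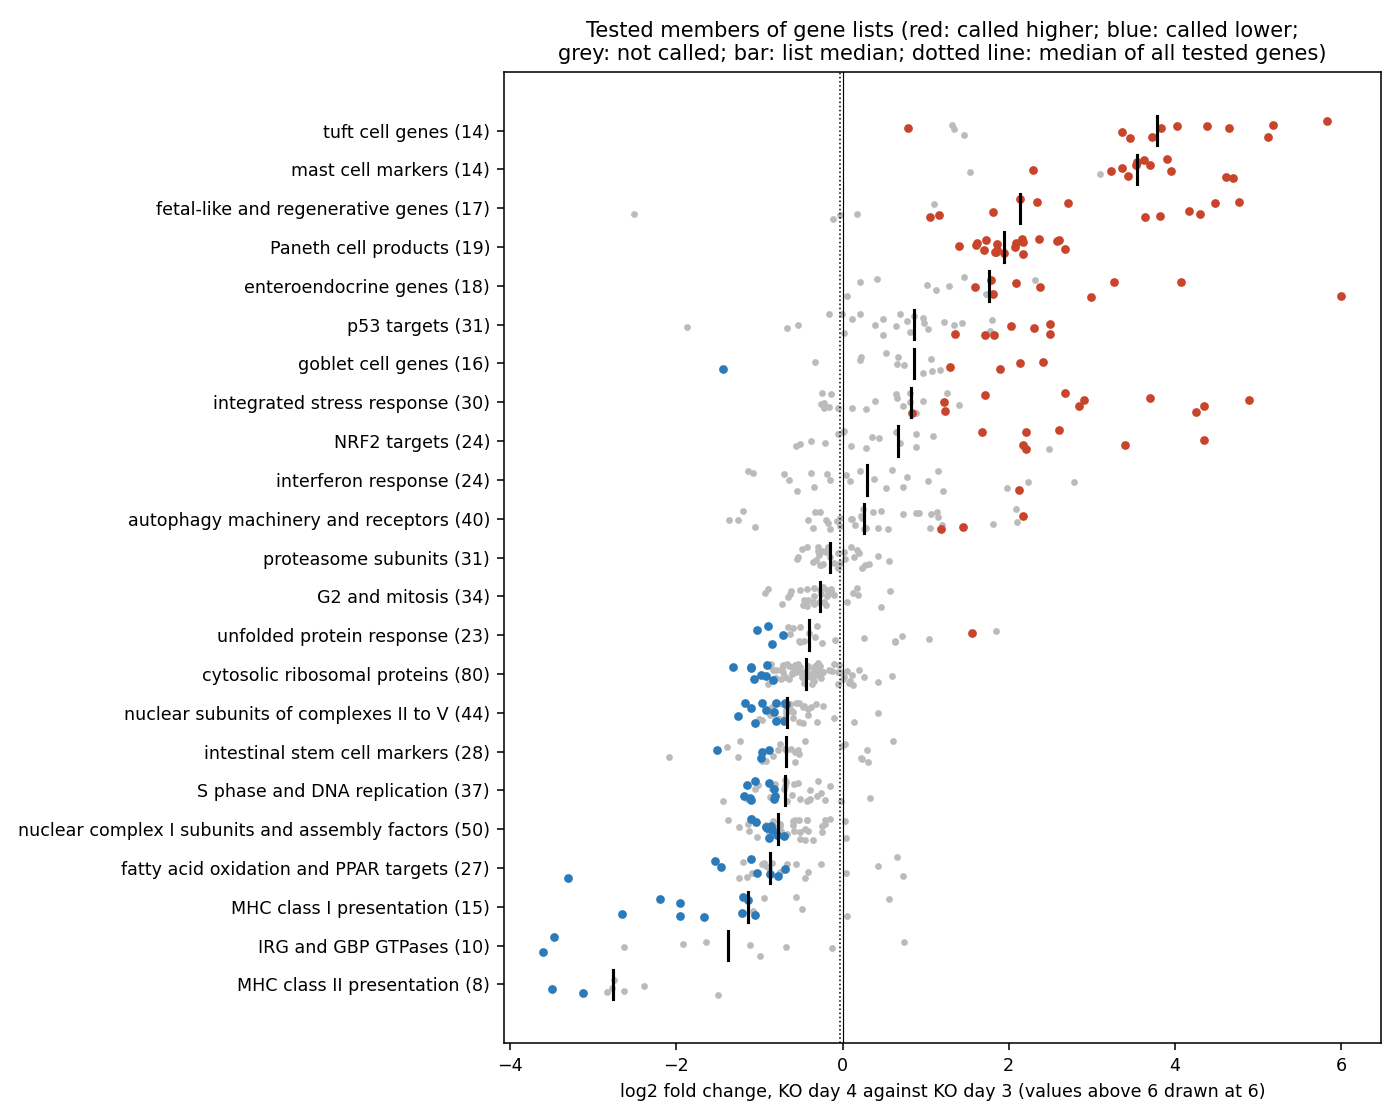
Log2 fold changes (x axis) of the tested members of 23 gene lists (y axis, number tested in parentheses), with called members in colour and a bar at each list's median. Tuft, mast, fetal-like, Paneth and enteroendocrine lists have medians above 1.5, and the 3 antigen presentation and GTPase lists medians below -1.

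Fetal-like and regenerative genes, which mark crypts after injury, rose in 12 of 17 tested members and fell in none (median 2.14). The annexin Anxa3 was at 0.284, 0.572 and 1.67 CPM at day 3 and 19.8, 16.3 and 26.1 at day 4 (log2 fold change 4.49, standard error 0.60, adjusted p = 0.0060 by edgeR). Anxa2 was at 113, 97.7 and 146 CPM and then at 375, 382 and 498, and Anxa5 at 7.53, 3.65 and 7.37 CPM and then at 31.8, 31.8 and 57.7. The EGF receptor ligand Areg was at 1.14, 0.358 and 3.57 CPM at day 3 and 37.5, 23.8 and 43.7 at day 4 (log2 fold change 4.30, standard error 0.68, adjusted p = 0.012 by edgeR). In Anxa3, Anxa2 and Areg the day 3 libraries overlapped with the controls. KO day 3 replicate 1, the highest of its group in mast cell markers, was the highest of its group in Anxa5 and not in the other 3. Day 3 counts were low for Anxa3 (39 over the group) and Areg (75), so the order of these libraries is imprecise. The part of mast cell RNA in these levels was not tested. Over the fits that leave out 1 library, 5 to 10 were called higher.

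Of 22 tested members of the Wnt list 2 rose and 1 fell. Wnt3, a niche ligand made by Paneth cells, rose from 17.2 ± 3.46 to 51.5 ± 10.5 CPM (SD, n = 3). The feedback inhibitor Nkd1 rose by 1.56, while Ascl2 fell. In the Notch list the receptor Notch1 fell from 35.4, 50.4 and 34.0 CPM to 22.2, 15.5 and 16.5 (log2 fold change -1.13, standard error 0.28, adjusted p = 0.043 by edgeR). None of the other 16 tested members was called. Notch1 was called in none of the 6 fits that leave out 1 library. Of 21 tested immediate early genes 3 rose, among them Klf6 (1.88) and Fosl2 (0.90). The 2 that fell were the phosphatase gene Dusp1 (-1.95) and Fos (-0.70). Fos and Fosl2 were called in none of the 6 fits that leave out 1 library. The shares called in the Wnt, Notch and immediate early lists were 13.6%, 5.88% and 23.8%, against 6.7% of all tested genes.

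Some p53 targets rose at day 4. The p53 target and cell cycle inhibitor Cdkn1a was at 29.8, 23.1 and 43.3 CPM at day 3 and 157, 186 and 202 at day 4 (log2 fold change 2.50, standard error 0.26, adjusted p = 0.0016 by edgeR). The controls were at 13.4, 14.4 and 16.8 CPM, so the level was higher at each step. The kinase Plk2 was at 8.80, 7.80 and 7.60 CPM and then at 35.7, 37.98 and 45.9 (log2 fold change 2.30, standard error 0.27, adjusted p = 0.0031 by edgeR). The carbonyl reductase Dcxr took another course, at 20.4, 19.1 and 16.1 CPM in controls, 6.39, 6.15 and 7.60 at day 3 and 28.1, 24.8 and 29.8 at day 4. In all, 7 of 31 tested p53 targets rose and none fell (median 0.86), with 3 to 8 called when single libraries were left out.

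The integrated stress response is the translation-control programme that ATF4 drives when eIF2 is phosphorylated. Of 30 tested genes 11 rose and none fell (median 0.83). Chac1, which degrades glutathione, was at 1.85, 0.644 and 2.07 CPM at day 3 and 15.4, 16.5 and 27.5 at day 4 (log2 fold change 3.69, standard error 0.54, adjusted p = 0.0086 by edgeR). The transcription factor Ddit3 (CHOP) was at 2.98, 5.01 and 2.94 CPM and then at 15.97, 31.5 and 35.6. The stress protein Nupr1 was at 48.0, 56.8 and 52.7 CPM and then at 198, 259 and 554. In controls Nupr1 was at 77.9, 15.9 and 20.8 CPM, and the Paneth cell gene Itln1 at 3722, 1495 and 1119. The part of Paneth cell RNA in the Nupr1 levels was not tested. Sesn2, which restrains mTORC1 and is also a p53 target, rose by 1.72. Of 20 cytosolic aminoacyl-tRNA synthetases, Aars (1.10) and Sars (0.74) rose, and none was called with library size alone. With single libraries left out 3 to 8 of the stress response genes were called.

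Chaperones of the endoplasmic reticulum were among the falls. Of 23 genes of the unfolded protein response 4 fell and 1 rose (median -0.40). The chaperone Hsp90b1 was at 527, 484 and 519 CPM at day 3 and 289, 298 and 231 at day 4 (log2 fold change -0.90, standard error 0.17, adjusted p = 0.020 by edgeR), and the disulfide isomerases Pdia4 (-1.03) and Pdia3 (-0.72) fell, while the sensor Ern1 rose (1.55). Cytosolic heat shock proteins gave no call in 14 tested genes, with Hspa8 at 3223 ± 170.1 and 2903 ± 176 CPM (SD, n = 3).

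Antioxidant genes controlled by NRF2 rose in 7 of 24 tested members and fell in none (median 0.67). Sqstm1, the autophagy receptor p62, was at 95.1, 75.3 and 77.7 CPM at day 3 and 332, 369 and 412 at day 4 (log2 fold change 2.17, standard error 0.18, adjusted p = 0.00056 by edgeR). Srxn1, which repairs peroxiredoxins, was at 30.8, 22.5 and 36.9 CPM and then at 91.6, 94.6 and 102. The cystine carrier Slc7a11 was at 0, 0.429 and 1.38 CPM and then at 12.4, 12.1 and 17.6, and Osgin1 rose by 3.40. Of 24 tested glutathione transferases and peroxidases 3 fell and 1 rose. The peroxiredoxins Prdx4 (-1.74) and Prdx2 (-0.85) and the glutathione transferase Mgst1 (-0.99) fell, while Gsta2 rose (3.72) from 28 counts over 3 libraries. Leaving out single libraries, 2 to 6 of the NRF2 targets were called.

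The letters TGATGNAA of the C/EBP-ATF response element (CARE), to which ATF4 binds, were found upstream of 3 of the 10 called stress response genes with a promoter in the table (RefSeq, GRCm38, 250 bases before the start, both strands), against 3.45% of all 32851 promoters. The stretches are shown because they are the only matches in these 10 genes. The match is in capitals and runs 5′ to 3′ along the gene's strand, so that TTNCATCA marks the opposite orientation. They lie at chr2:119351034-119351071 (plus strand, Chac1), chr3:50443657-50443694 and chr3:50443638-50443675 (minus strand, Slc7a11, overlapping stretches) and chr7:126625558-126625595 (minus strand, Nupr1).

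Chac1: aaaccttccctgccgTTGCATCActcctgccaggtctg
Slc7a11 first match: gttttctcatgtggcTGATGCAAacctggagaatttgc
Slc7a11 second match: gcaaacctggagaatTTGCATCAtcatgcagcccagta
Nupr1: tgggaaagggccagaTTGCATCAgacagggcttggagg

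The match began 193 bases before the start in Chac1, 66 and 47 in Slc7a11 and 110 in Nupr1. The antioxidant response element, found in 2.47% of all promoters, was in none of the 7 windows of called NRF2 targets. No match says only that the searched letters are not in these windows.

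In autophagy and the lysosome, calls were few and went both ways. Of 40 autophagy genes Sqstm1, Gabarapl1 (1.45) and Atg7 (1.19) rose and none fell (median 0.25, or below 0 with library size alone). Of 39 lysosomal hydrolases and cofactors 3 rose and 3 fell. The protease Lgmn was at 7.24, 13.2 and 17.1 CPM and then at 36.5, 56.6 and 48.9, whereas Ctsb fell from 498 ± 8.18 to 278 ± 40.7 CPM, Psap from 321 ± 10.2 to 186 ± 9.87 and the mannosidase Man2b1 from 90.8 ± 9.74 to 40.8 ± 4.45 (SD, n = 3). Of 42 genes of the lysosome membrane, proton pump and mTORC1 axis 3 rose and 1 fell, a share of 9.52% against 6.7% of all tested genes. The transcription factor Tfe3, which drives lysosomal genes, rose from 15.2 ± 3.96 to 40.1 ± 7.60 CPM. Its regulator Fnip1 rose by 1.43 and the proton pump subunit Atp6v0d1 by 1.71, while Lamtor2 fell by 0.997.

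Relative to nuclear counts, mitochondrial mRNAs were higher at day 4, while some nuclear genes for the same machinery fell. More mitochondrial RNA and less RNA of nuclear genes cannot be told apart on this scale. All 13 mitochondrial mRNAs had every day 4 library above every day 3 library, by 4.14-fold (mt-Nd3) to 12.9-fold (mt-Nd5) in group means of CPM of nuclear counts. The complex I gene mt-Nd1 was at 18292, 33480 and 31733 at day 3 and 199300, 235630 and 288450 at day 4, on that scale. In a fit that kept mitochondrial genes, its log2 fold change was 3.14. The complex IV gene mt-Co3 was at 41601, 56515 and 49383 and then at 211820, 252350 and 296820, and the rRNA mt-Rnr2 was 10.03-fold higher. The neighbouring genes mt-Nd3 and mt-Nd4l were 4.14-fold and 10.5-fold higher.

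**Figure D5:**
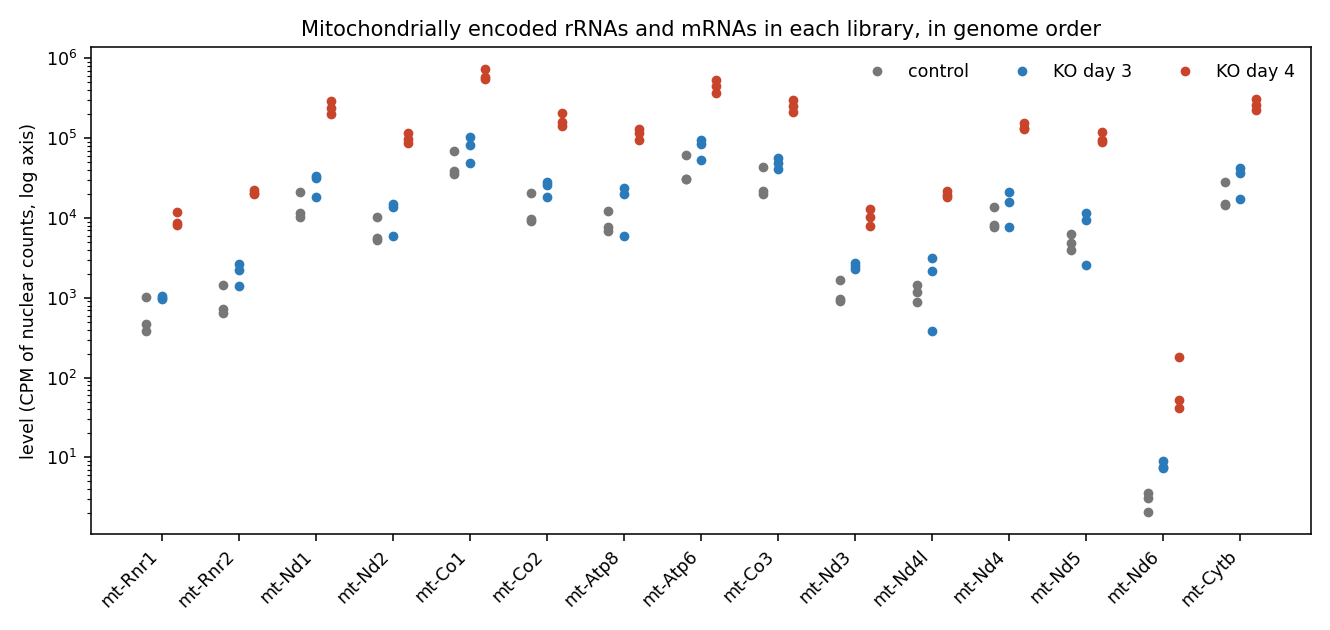
Level of each mitochondrially encoded rRNA and mRNA in genome order (x axis), as CPM of nuclear counts on a log axis, 1 point per library. In every gene all KO day 4 libraries lie above all KO day 3 and control libraries.

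Reads were also counted on nuclear pseudogenes that match mitochondrial transcripts at 90% identity or more over at least 80% of their length. Of 16 such pseudogenes 10 were tested, and all 10 were called higher. They took 3.70% ± 0.77 of nuclear counts at day 3 and 16.9% ± 1.40 at day 4 (SD, n = 3). Gm13340 (chromosome 2, 22588103 to 22589647) was at 238, 338 and 297 CPM and then at 3497, 3946 and 4801 (log2 fold change 3.81, standard error 0.22, adjusted p = 0.00014 by edgeR). How many of these reads come from mitochondrial transcripts was not tested. Without them, 496 genes were called higher and 271 lower.

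Of 50 nuclear-encoded complex I subunits and assembly factors 9 fell and none rose (median -0.77). Ndufv2 was at 274, 299 and 241 CPM at day 3 and 153, 149 and 144 at day 4 (log2 fold change -0.87, standard error 0.17, adjusted p = 0.021 by edgeR), with controls at 257, 229 and 176. Of 44 nuclear subunits of complexes II to V 12 fell and none rose (median -0.67), among them Cox6a1 (-1.17), Cox7b (-0.97), Cox6b1 (-1.05) and Cox4i1 (-1.10), all of complex IV. Mitochondrial ribosomal proteins had a median of -0.47 with 1 of 77 called (Mrps33), and the 34 genes of mitochondrial DNA maintenance and expression a median of -0.29 with none called.

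Cytosolic ribosomal proteins fell in 8 of 80 (median -0.45), with Rpl39 at 318, 230 and 168 CPM and then at 112, 90.2 and 84.9. Ribosome biogenesis gave no call in 42 genes (median -0.13). In Ndufa7, Ndufb9, Cox6b1, Rpl39 and Rpl30 KO day 3 replicate 1, which stands apart, was the highest library. Without the 2 libraries that stand apart 3 genes of complex I, 6 of complexes II to V and 3 ribosomal proteins were called lower, with medians of -0.45, -0.45 and -0.13, and without KO day 3 replicate 2, KO day 4 replicate 2 or KO day 4 replicate 3 none was (edgeR).

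Fold changes also moved with gene length. Over tested protein-coding genes, the median log2 fold change was -0.28 in the 2691 genes with the shortest summed exons (up to 2808 bases) and 0.21 in the 2689 with the longest (from 6862 bases), and 4.87% and 0.967% of these genes were called lower. Of the complex I list 35 of 50 members lay in that shortest class, as did 64 of 80 ribosomal proteins and 18 of 19 Paneth cell products, which rose. The part of length in these results was not tested.

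Fatty acid oxidation and PPAR target genes fell in 8 of 27 (median -0.87). Hadh, of mitochondrial beta-oxidation, was at 408, 442 and 359 CPM at day 3 and 238, 221 and 201 at day 4 (log2 fold change -0.87, standard error 0.17, adjusted p = 0.022 by edgeR). Eci1 (-1.10) and Acaa2 (-1.46) fell too. In the TCA cycle Suclg1 (-0.79) and Fh1 (-0.75) fell among 24 genes. Of 21 tested genes of fatty acid and lipid synthesis 3 fell and 1 rose. The desaturases Fads2 and Fads1 fell, from 443 ± 25.7 to 192 ± 40.4 CPM and from 159 ± 28.9 to 74.4 ± 7.89 (SD, n = 3). The malic enzyme gene Me1 rose by 2.20. Of 24 cholesterol synthesis genes 1 fell, Ebp (-0.91).

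Of the 32 tested members of the xenobiotic enzyme list 3 fell and none rose (median -0.73). The list does not hold Ugt1a6a, which fell (-3.53), or the carboxylesterase Ces1c, which rose (4.17). Ces1d was at 39.6, 65.6 and 37.9 CPM at day 3 and 3.42, 1.55 and 0 at day 4 (log2 fold change -4.66, standard error 0.63, adjusted p = 0.0061 by edgeR), below controls at 107, 76.2 and 79.9. Aldh1b1, an aldehyde dehydrogenase of these stem cells, fell from 2044 ± 230.1 to 877 ± 212 CPM and Cyp4v3 from 23.3 ± 8.80 to 5.29 ± 2.31 (SD, n = 3). Of 35 tested peroxisome genes 2 fell and 1 rose. The peroxisomal oxidase Pipox was at 11.2, 13.7 and 7.65 CPM and then at 1.33, 0 and 0, after 20.6 to 32.8 in controls. Of 22 tested genes of glycolysis and lactate 1 rose and 1 fell. Hk1 rose by 3.63 from 38 counts over 3 libraries, and the lactate carrier Slc16a1 fell from 257 ± 38.9 to 131 ± 27.2 CPM.

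Of 36 tested genes of apoptosis and lytic death 4 fell and none rose (median -0.02), while 4 fell and 2 rose without the 2 libraries that stand apart. The inflammasome adaptor Pycard was at 697, 512 and 442 CPM at day 3 and 207, 171 and 168 at day 4 (log2 fold change -1.59, standard error 0.21, adjusted p = 0.0058 by edgeR). Bak1, which permeabilises mitochondria, was at 78.8, 70.3 and 84.0 CPM and then at 32.3, 27.6 and 28.7. The sensor Nlrp6 (-1.24) fell as well. Histone acetyltransferases and bromodomain readers, histone deacetylases and sirtuins, intraflagellar transport, the BBSome, the ciliary transition zone and the Commander, retromer and WASH complexes gave no call in 23, 15, 21, 5, 19 and 29 tested genes. Over all 11979 genes, 3034 were at unadjusted p under 0.05 by edgeR, and DESeq2 called 1714.

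The number of calls depended on which libraries were in the fit. With both libraries that stand apart left out, 998 genes were called. Without KO day 3 replicate 2, 116 genes were called, and without KO day 4 replicate 2, 115, of which 115 and 112 were among the 803. Without KO day 4 replicate 3 there were 226, and without the remaining libraries 408 to 549. No call of the 803 changed direction in any alternative run. Genes that stayed called with each of the 6 libraries left out in turn include Dmbt1, Igtp, Ifi47, Psmb10, Ces1d, Tnfsf10 and Pycard among the falls, and Fam129a, Sh2d6, Dclk1, Itln1, Ang4, Lyz1, Gcg, Cdkn1a, Plk2, Chac1, Nupr1, Sqstm1, Srxn1, Anxa2, Anxa3, Areg, Reg4, Fcer1a and Klf6 among the rises.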

How the data were processed

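RNA-seq of sorted Lgr5-GFP cells was analysed for 3 KO day 3 and 3 KO day 4 libraries, with 3 control libraries as values. The deposited table holds unnormalised counts of reads, 1 row per Ensembl identifier; HISAT2 2.0.4 and GRCm38 stand in the submitters' processing notes, and the counting tool and its strand setting are not given in the sources used here. Reads of overlapping, antisense and near-identical genes (defensins, Ugt1a genes, ribosomal protein genes with pseudogenes, mitochondrial copies) may therefore be misassigned. Symbols for 51933 of 57180 identifiers came from GENCODE M21; 6 empty columns were not used.

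The 37 mitochondrial genes were removed, then filterByExpr (10 counts in a library, 15 in all), TMM and edgeR 4.0.16 (quasi-likelihood F-test, R 4.3.3) were run on the 6 libraries, with Benjamini-Hochberg adjustment at 0.05 over all 11979 tested genes. Levels are CPM of TMM-scaled nuclear counts. Libraries within a group differed by more than sampling noise (chi-square over its degrees of freedom 10.4 to 58.4). On simulated counts for this comparison (11979 genes, 10 draws) 61.6% of 4-fold and 10.2% of 2-fold changes were called, with 5.68% false calls. Alternatives used DESeq2 1.42.0, limma 3.58.1 voom and other settings. Floors cover counting error only.

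The text names Kansl1 and its complex partners, 4 stem cell and proliferation genes, the 12 largest changes each way (mean of at least 10 CPM, no overlap, no clone names), up to 4 called members per list by smallest p or, with none called, the 2 with the highest level, and the 3 smallest p. Some genes that this rule selects are not reported here. Members and the 68 lists were chosen with earlier results of these data known. Lists are described by counts and medians and were not tested.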

Additional observations from a re-analysis of the deposited data

How the results depend on the processing

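Against 803 calls, 496 higher and 307 lower, library size alone gave 1526 (405 and 1121), no filter on low counts 1971 (944 and 1027), DESeq2 1714 (1005 and 709), limma voom with quality weights 1752 (998 and 754), all 9 libraries in 1 fit 1712 (888 and 824) and a test against a fold of 1.5 gave 206 (179 and 27). With 1 library left out, and so fewer samples, 115 to 549 genes were called, 96 to 406 higher and 17 to 161 lower; the fewest came without KO day 4 replicate 2 or KO day 3 replicate 2. RLE size factors, mitochondrial genes kept, a mean of at least 5 CPM, the 2 libraries that stand apart left out and, chosen after seeing the data, nuclear copies of mitochondrial genes left out stayed within 1.5 times the count. The rise of the mitochondrial share moved by less than 1 SD in every alternative.

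With the replicate number as a block, 650 genes were called, 359 higher and 291 lower, 542 of them among the 803. Same-numbered libraries of the 2 days deviated together at r of -0.069, 0.020 and 0.019, and not every library correlated best with its own number. With so few libraries these correlations cannot decide whether same-numbered samples are paired, and the labels give only the number.

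Of 142 called genes named in the text, 37 kept their call in all 18 alternatives, and 142 with DESeq2, 134 with library size alone and 42 without KO day 4 replicate 2. For Kat8 and Mki67, neither called, the sign turned: Kat8 was at -0.030 with library size alone and from -0.16 (without KO day 4 replicate 3) to 0.43 with 1 library left out, and Mki67 from -0.32 to 0.034 (without KO day 3 replicate 2), with 0.023 without KO day 4 replicate 3; the cause was not tested. Nuclear depth at day 4, 3115374 to 5614186 counts, limits low genes.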
